A study of Mus musculus with 4 samples.

Results

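Signals of 10 genes of protein folding and stress in the endoplasmic reticulum (ER), Hspa5, Hsp90b1, Calr, Canx, Pdia3, Pdia4, Pdia6, Herpud1, Xbp1 and Ddit3, were compared between eye tissue of control mice and of transgenic mice. Each gene was read by every probe set (a group of oligonucleotides that report 1 signal) for which the platform annotation gives its symbol and no other. This found 25 probe sets, of 10 genes among the 18193 genes with such a probe set. No probe set with several symbols names one of the 10 genes. Total RNA was hybridised to 4 one-colour oligonucleotide arrays, which carry the label retina. The control group is 1 sample on 2 arrays, since control array 2 is labelled as a technical repeat of control array 1. The transgenic group has 2 arrays, taken here as 2 samples, from mice with myocilin expression in their aqueous humor. This fluid fills the front of the eye. The labels give no strain, age, sex or promoter of the transgene, no genotype of the controls beyond that word, and do not state whether the transgenic RNA came from separate mice. The p-values given here therefore reflect a spread between samples that may be technical.

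The ER is where secreted and membrane proteins fold. Hsp70 and Hsp90 chaperones hold unfolded chains, the lectins calnexin and calreticulin hold glycoproteins, and protein disulfide isomerases form and rearrange disulfide bonds. When unfolded protein builds up, the sensors Ern1, Eif2ak3 and Atf6 start the unfolded protein response, which raises chaperone genes, genes of ER-associated degradation and, through Eif2ak3 and Atf4, the transcription factor gene Ddit3. Myocilin is itself a secreted glycoprotein that folds in the ER, and some mutant forms of it are known to be held there. The labels do not say which form the transgene encodes, and its own gene was not analysed here. The 3 sensors are not among the 10 genes and are described with the other pathway genes.

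A promoter motif of the ER stress response was found in full in 5 of the 10 genes. Genes and motif were both taken for their known part in ER stress. The shares below therefore describe the genes and are not a test. The ER stress response element (ERSE), which binds NF-Y and the active form of Atf6, has the letters CCAAT, then any 9 bases, then CCACG, and was searched on both strands of a window from 250 bases before to 50 bases after each annotated start (RefSeq, GRCm38.p6). The full motif was found in the windows of 5 of the 10 genes, against 39 of all 32851 windows, or 0.119%. With the last base left free, a choice made after these sequences were seen, it was found in 8 of 10 against 0.365% of all windows. The matches are shown because they are the sequence feature that joins the chaperone genes. Each is written 5′ to 3′ on the strand of the match, with the bases that fit the fixed letters of the motif in capitals.
Hspa5, chr2:34772025-34772043, plus strand: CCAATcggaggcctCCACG
Hsp90b1, chr10:86705638-86705656, minus strand: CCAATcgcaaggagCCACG
Hsp90b1, chr10:86705533-86705551, plus strand: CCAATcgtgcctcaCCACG
Calr, chr8:84847075-84847093, plus strand: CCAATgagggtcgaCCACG
Canx, chr11:50325800-50325818, minus strand: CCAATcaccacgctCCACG
Pdia6, chr12:17266491-17266509, plus strand: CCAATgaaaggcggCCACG
Pdia3, chr2:121413873-121413891, plus strand: CCAATcggcggctgCCACa
Pdia4, chr6:47813602-47813620, plus strand: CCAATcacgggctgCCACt
Herpud1, chr8:94386411-94386429, plus strand: CCAATggatggcagCCACa
A second, shorter element, ERSE-II, with the letters ATTGG, any base, then CCACG, was found in the window of Herpud1 alone among the 10 genes, against 12 of all windows, or 0.0365%.
Herpud1, chr8:94386377-94386387, plus strand: ATTGGgCCACG
A match is a description of letters and not of a bound site.

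The 250 bases before the start of Hspa5, the gene of the ER Hsp70 chaperone BiP, show the motif between 65 and 47 bases before the annotated start, with the matching letters in capitals.
Hspa5, chr2:34771840-34772089, plus strand: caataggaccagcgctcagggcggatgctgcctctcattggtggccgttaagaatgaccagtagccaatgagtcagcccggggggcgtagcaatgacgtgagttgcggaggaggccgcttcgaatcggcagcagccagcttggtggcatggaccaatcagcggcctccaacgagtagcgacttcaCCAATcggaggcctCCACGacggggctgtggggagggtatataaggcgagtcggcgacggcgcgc
The same stretch of Herpud1 holds the shorter element in full, between 52 and 42 bases before the start. It also holds the longer element up to its last base, which lies beyond the stretch and differs from the motif.
Herpud1, chr8:94386179-94386428, plus strand: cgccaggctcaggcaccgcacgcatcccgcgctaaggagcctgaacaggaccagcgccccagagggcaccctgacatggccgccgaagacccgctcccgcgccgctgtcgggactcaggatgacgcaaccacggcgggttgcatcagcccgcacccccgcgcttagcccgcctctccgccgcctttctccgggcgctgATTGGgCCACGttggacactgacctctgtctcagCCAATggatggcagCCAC
The windows of Ddit3 and Xbp1 held neither element in the forms searched. Matches that differ at any other base were not counted, and sequence outside the windows was not searched. The UPRE core TGACGTGG, a site of the Xbp1 protein, and the element ATTGCATCA, a binding site of Atf4 with C/EBP proteins, were found in none of the 10 windows (0 of 10), against 0.676% and 0.192% of all windows.

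**Figure D1:**
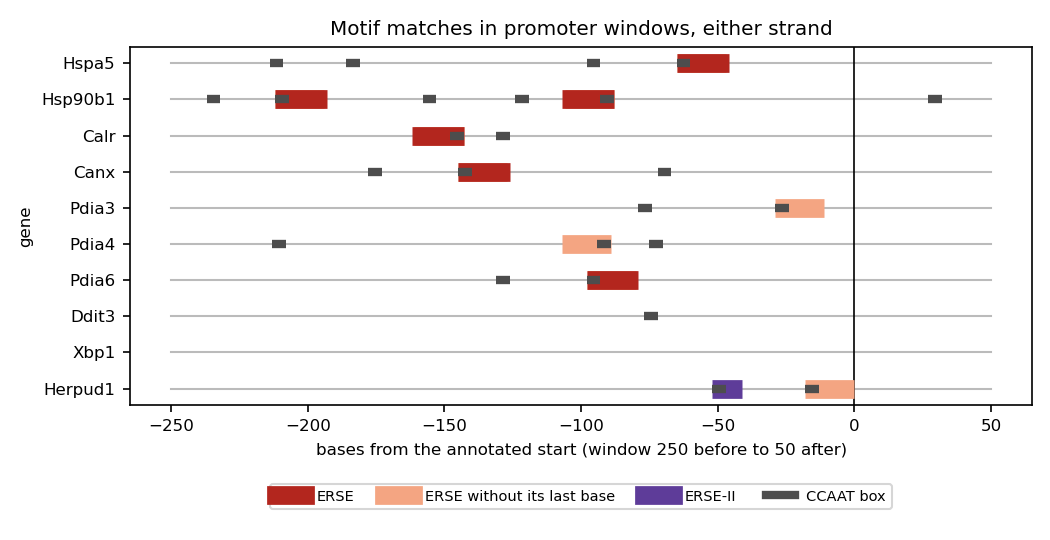
Promoter windows of the 10 genes, with the distance from the annotated start in bases on the x axis and a gene on each line; bars mark matches of ERSE, of ERSE without its last base, of ERSE-II and of the CCAAT box alone on either strand. The motif with its last base free lies in 8 of the 10 windows, all of its matches before or up to the start.

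Markers of the labelled tissue were at low signals. Of 5 rod photoreceptor genes, 1 passed the filter on dim probe sets, Sag with a mean control signal of 148, and Gnat1 stood at 23.9. All 5 corneal epithelium genes passed it, among them Krt12 at 11206 and Aldh3a1 at 10481. Brightness also depends on the probe set, so these signals do not give the makeup of the tissue, which is called eye tissue here. In bulk tissue, fewer cells of a type and less RNA per cell cannot be told apart.

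Values are the deposited linear signal intensities, and each array had a mean of 150 with the top and bottom 2% trimmed. Changes are differences of log2(signal + 16), transgenic minus control, a scale on which the changes of dim probe sets come out too small. A total of 27022 probe sets, those with a mean above a signal of about 30.0, were tested with limma. Of the 25 probe sets of the 10 genes, 24 were tested. Tests compare arrays within a probe set. Signals of different probe sets were ranked to filter, to pick the brightest probe set of a gene and to choose the markers named. Since brightness also depends on the probe set, such ranks do not compare amounts of RNA.

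None of the 10 genes passed the threshold of 0.05 on the adjusted p. In limma 0 of 24 probe sets passed, where 0.0777% of all tested probe sets did (0.0555% as higher and 0.0222% as lower), and 3 of 24 had an unadjusted p under 0.05, where 7.06% of all did. The changes ran from −0.29 to 0.43 with a median of 0.03, against a median of −0.02 over all 27022. On the brightest probe set of each gene 4 genes had both transgenic arrays above both control arrays, 1 had both below and 5 overlapped, where 46.8% of all genes did not overlap. By the same probe sets, 6 genes lay above 0 and 4 below, from −0.14 for Pdia4 to 0.30 for Pdia6, with a median of 0.03 against −0.01 over all 12722 genes tested. The 95% interval of that probe set lay inside a 1.5-fold change in either direction (0.58 on the log2 scale) for 10 of 10 genes. It lay inside for 18 of all 24 probe sets. These intervals take the lone control sample to vary like the transgenic samples. An exact permutation test over 3 samples cannot give a p below 0.333.

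Both transgenic arrays lay above both control arrays for 10 of the 24 probe sets, where 21.1% of all tested probe sets did, and below both for 5, where 23.6% did. The groups did not overlap for 62.5% of the 24, against 44.7% of all tested probe sets. Bright probe sets as a whole stood higher on the transgenic arrays. Over the 1973 tested probe sets with a mean signal of 1000 or more, the median change was 0.10 and 51.7% had both transgenic arrays above both control arrays. Of the 12 such probe sets of the 10 genes, 6 did, with a median change of 0.09. After quantile normalization these medians were 0.011 over all bright probe sets and −0.0061 over the 12. Poly-A control transcripts, which are added during labelling and belong to no tissue, had a median change of 0.24 over 27 probe sets. Whether this shift bears on the 10 genes was not tested. For 12 of the 24 probe sets the change was smaller in size than the difference between the control arrays, which carry the same sample. The change compares means of arrays and that difference compares single arrays, which vary more, so the sizes are not on equal terms. No share over all tested probe sets is given beside it, so this count does not set the 10 genes apart.

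**Figure D2:**
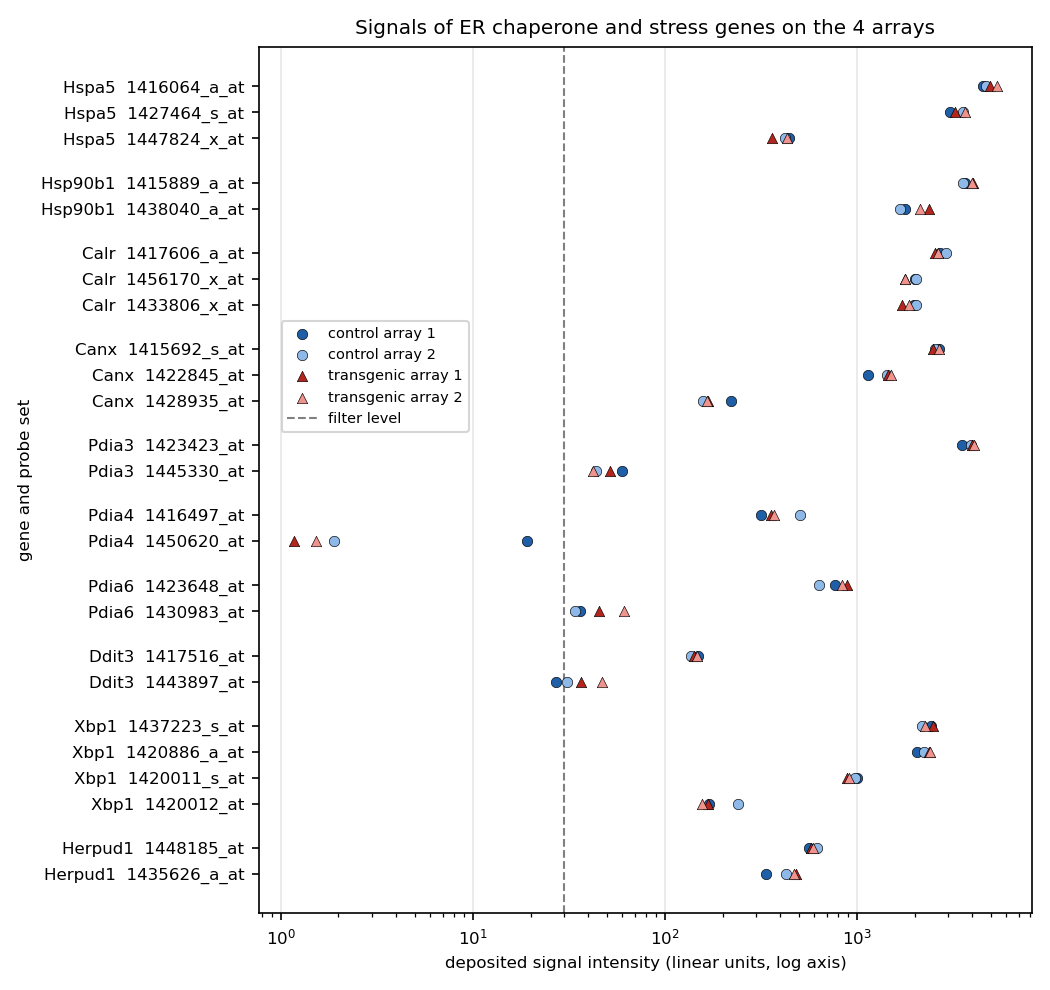
Deposited signal intensity (x, log axis) of each of the 25 probe sets on the 4 arrays, grouped by gene, with the filter level of 30.0 as a dashed line. Circles of control arrays and triangles of transgenic arrays lie close together on most lines, and 1 probe set of Pdia4 lies below the filter level on all 4 arrays.

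Hspa5 encodes BiP, the Hsp70 chaperone of the ER lumen and the most used readout of ER stress. Its brightest probe set, 1416064_a_at, gave 4520 and 4710 in the control sample and 4933 and 5360 in the transgenic samples. Both transgenic values lay above both control values. The change was 0.16 ± 0.10 (log2, SE; limma adjusted p = 0.822), and 0.03 after quantile normalization. Probe set 1427464_s_at gave 3039 and 3561 in control and 3230 and 3653 in transgenic arrays, which overlap, with a change of 0.06. Probe set 1447824_x_at gave 443 and 420.5 in control and 363 and 436 in transgenic arrays, also overlapping, at −0.11. The suffixes a, s and x mark probe sets that can read several transcripts, of which x sets may also bind unrelated ones.

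Hsp90b1 encodes Grp94, the Hsp90 chaperone of the ER, which folds a narrower set of clients than BiP. Its brightest probe set, 1415889_a_at, had signals of 3670 and 3591 in control and 4003 and 3975 in transgenic arrays, a change of 0.14 ± 0.09 (adjusted p = 0.851). Its second, 1438040_a_at, had 1778 and 1680 in control and 2380 and 2132 in transgenic arrays. The groups did not overlap on either probe set. The change of the second was 0.38 ± 0.11, with an interval from 0.14 to 0.62, an unadjusted p of 0.0047 and an adjusted p of 0.413 in limma. This was the lowest adjusted p among the 24 probe sets, and after quantile normalization its change was 0.30.

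Calr encodes calreticulin, the soluble lectin chaperone that also buffers ER calcium. All 3 of its probe sets lay below 0. The brightest, 1417606_a_at, had signals of 2723 and 2907 in control and 2554 and 2640 in transgenic arrays, at −0.12 ± 0.10 (adjusted p = 0.893). The other probe sets were 1456170_x_at, with 2015 and 2043 against 1788 and 1776, and 1433806_x_at, with 1994 and 2023 against 1713 and 1860. On all 3, both transgenic arrays lay below both control arrays, with changes of −0.19 and −0.17 on the last 2. Their adjusted p were 0.786 and 0.822. Probe sets of 1 gene on the same arrays are not replicates. After quantile normalization the 3 changes were −0.22, −0.25 and −0.24.

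Canx encodes calnexin, the membrane-bound lectin partner of calreticulin. Its brightest probe set, 1415692_s_at, overlapped between groups, with 2682 and 2563 in control and 2500 and 2667 in transgenic arrays, at −0.02 ± 0.10 (adjusted p = 0.992). Probe set 1422845_at had 1145 and 1440 in control and 1452 and 1512 in transgenic arrays, at 0.20. Its groups did not overlap, but the control arrays differed by 0.33. Probe set 1428935_at had 222 and 159 in control and 168 and 167 in transgenic arrays, at −0.16, with a control difference of −0.44. The 3 probe sets of Canx thus gave both signs.

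Pdia3 encodes ERp57, the isomerase that works with calnexin and calreticulin on glycoproteins. Its brightest probe set, 1423423_at, had 3528 and 3936 in control and 3987 and 4096 in transgenic arrays, at 0.12 ± 0.09 (adjusted p = 0.884). The transgenic arrays were the higher ones, but the control arrays differed by 0.16, more than this change. The dim probe set 1445330_at overlapped, with 59.5 and 43.7 in control and 51.9 and 42.5 in transgenic arrays. Pdia4 encodes ERp72, an isomerase found in complexes with BiP. Probe set 1416497_at had 319 and 504 in control and 355 and 369 in transgenic arrays, so both transgenic values lay between the control values. Its change was −0.14 ± 0.14 (adjusted p = 0.917) and it turned to 0.18 without control array 2. Its other probe set, 1450620_at, was not tested, with signals of 19.1 and 1.9 in control and 1.17 and 1.53 in transgenic arrays, all below the filter level.

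Pdia6 encodes P5, an isomerase that also acts on the sensor Ern1. Of the 10 genes it had the largest change on a brightest probe set. Probe set 1423648_at had 769 and 638 in control and 888 and 840.1 in transgenic arrays, and the groups did not overlap. The change was 0.30 ± 0.12, with an interval from 0.04 to 0.55, an unadjusted p of 0.029 and an adjusted p of 0.641 in limma. Left out in turn, the arrays gave changes from 0.16 to 0.43, and the control arrays differed by −0.26. The dim probe set 1430983_at had 36.2 and 34.2 in control and 45.2 and 61.2 in transgenic arrays, at 0.43 ± 0.33.

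Herpud1 encodes a membrane protein of ER-associated degradation, the route by which misfolded proteins leave the ER for the proteasome. Its 2 probe sets differed. The brightest, 1448185_at, overlapped, with 561 and 622 in control and 576 and 588 in transgenic arrays, at −0.02 ± 0.12 (adjusted p = 0.995). The other, 1435626_a_at, had 338 and 430.3 in control and 481 and 471 in transgenic arrays, at 0.31 ± 0.13 (unadjusted p = 0.042, adjusted p = 0.679). Here both transgenic arrays were higher, while the control arrays differed by 0.34.

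Xbp1 encodes the transcription factor whose transcript Ern1 splices during ER stress. The deposited signals do not separate the spliced from the unspliced transcript. Its 4 probe sets lay on both sides of 0. The brightest, 1437223_s_at, had 2426 and 2190 in control and 2503 and 2257 in transgenic arrays, which overlap, at 0.04 ± 0.11 (adjusted p = 0.979). On 1420886_a_at, with 2065 and 2233 in control and 2366 and 2398 in transgenic arrays, the transgenic arrays were higher, at 0.15. On 1420011_s_at, with 1000.3 and 979 against 892 and 909, and on 1420012_at, with 169 and 241 against 168 and 156, they were lower, at −0.13 and −0.29. None of the 4 had an unadjusted p under 0.05, and their adjusted p lay between 0.817 and 0.979.

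Ddit3 encodes CHOP, the transcription factor tied to cell death under lasting ER stress. Probe set 1417516_at had 149.6 and 137 in control and 142 and 147 in transgenic arrays. The values overlapped, with a change of 0.01 ± 0.20 (adjusted p = 0.995) and an interval from −0.42 to 0.44. The dim probe set 1443897_at had 27.1 and 30.8 in control and 36.7 and 47.2 in transgenic arrays, at 0.36 ± 0.35 (adjusted p = 0.914). There the transgenic arrays were higher. The mean control signal was under the filter level, so the probe set was tested only through the transgenic arrays, and the interval from −0.41 to 1.13 leaves more room than on any brighter probe set described here.

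**Figure D3:**
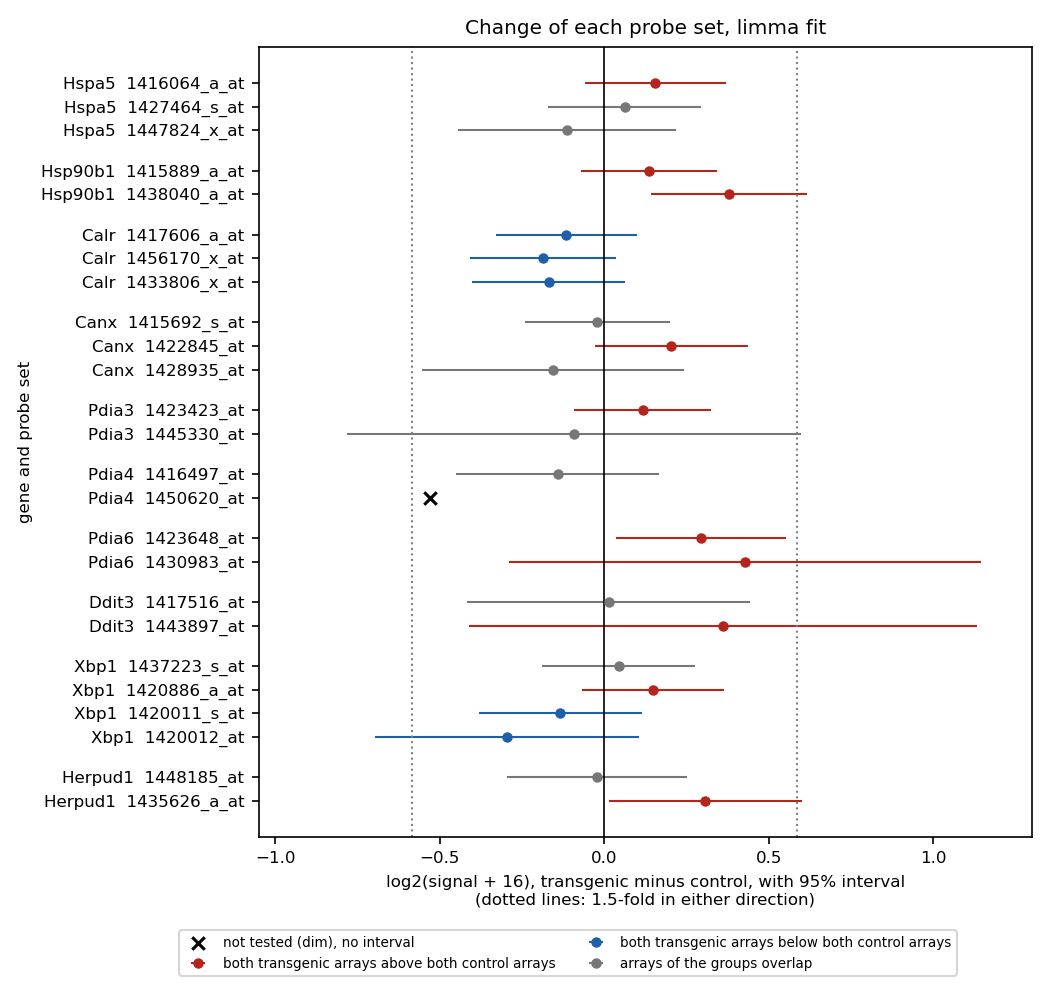
Change of log2(signal + 16), transgenic minus control (x), with its 95% interval from limma for the 24 tested probe sets, grouped by gene; colours show whether the arrays of the groups overlap, dotted lines mark 1.5-fold, and a cross marks the untested probe set. For 3 of the 24 the interval leaves out 0, and 0 passed the adjusted threshold.

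Of the 9 genes with at least 2 tested probe sets, 5 had probe sets on both sides of 0, namely Hspa5, Canx, Pdia3, Xbp1 and Herpud1. Precision followed the signal. Over all tested probe sets, the SD of the difference between the control arrays was 0.38 for mean signals under 100, 0.22 between 100 and 1000, and 0.13 from 1000 up. The SD of the change over the 12 probe sets of these genes from 1000 up was 0.16, against 0.19 over all 1973 probe sets there. Without control array 2 the median of the 10 genes was 0.086, and without control array 1 it was 0.054. In both cases 0 of 24 probe sets passed.

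**Figure D4:**
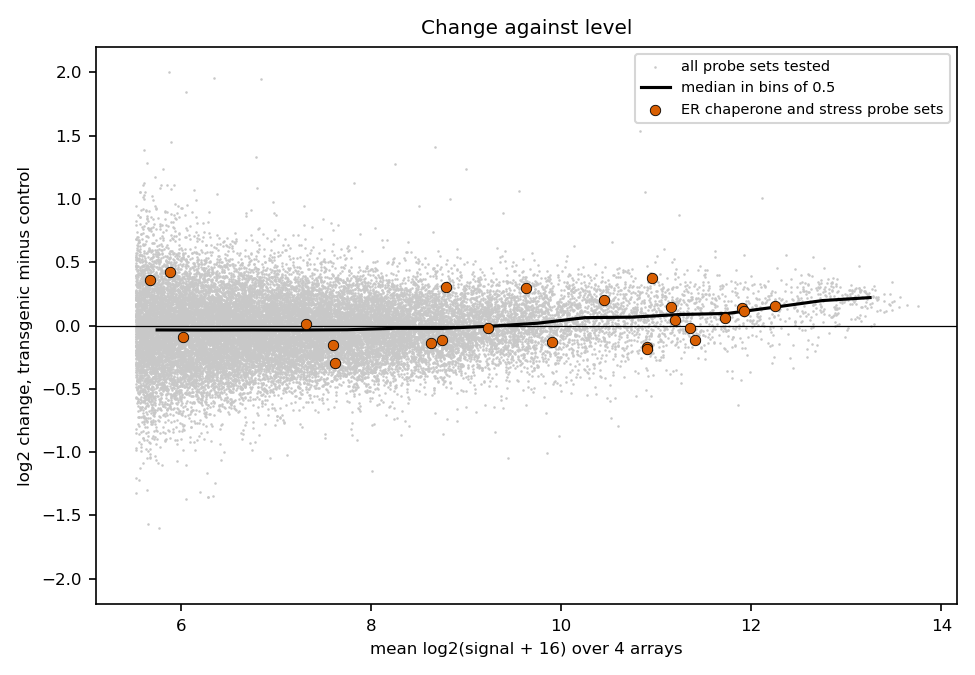
Change of log2(signal + 16), transgenic minus control (y), against the mean log2(signal + 16) over the 4 arrays (x) for the 27022 tested probe sets in grey, with their median in bins as a line and the 24 probe sets of the ER genes as orange points. The line rises with the level, to a median of 0.10 from a signal of 1000 up, and the orange points lie on both sides of it.

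The other genes of the pathway were taken in 9 lists, each gene by its brightest probe set. Of 119 genes 113 had a probe set and 111 were tested, and 0 passed in limma, where 0.126% of all 12722 genes did (0.0943% as higher and 0.0314% as lower). At an unadjusted p under 0.05 there were 12 of 111, where 8.06% of all genes were. The median change was 0.02, with 59 above and 52 below 0. Both transgenic arrays lay above both control arrays for 38 and below both for 25, against 22.8% and 24.0% of all genes. The values of genes named below are changes with their SE, and none passed in limma, with adjusted p between 0.439 and 0.967 on the brightest probe sets and 0.385 as the lowest on the others.

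Among the sensors and the proteases that cleave Atf6, 0 of 6 passed, with 2 above and 4 below 0 and a median of −0.13. Atf6 stood at −0.31 ± 0.22, and at −0.26 and 0.04 on its other probe sets, Eif2ak3, the gene of PERK, at −0.16 ± 0.17 and Atf6b at −0.14 ± 0.26. In the list of Atf4 and its targets, 0 of 9 passed, with 6 above and 3 below 0 and a median of 0.19. Atf3, a stress-induced transcription factor gene, stood at 0.71 ± 0.34, with 20.4 and 26.04 in control and 48.0 and 47.5 in transgenic arrays. Its control signals were under the filter level. Nupr1, a nuclear stress protein gene, stood at 0.38 ± 0.11, with 777 and 789 in control and 1037 and 1009 in transgenic arrays, and at 0.09 on its second probe set. Sesn2, a sestrin gene, stood at −0.69 ± 0.30, and at −0.10 on its second probe set. The list thus held genes on both sides of 0.

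Of the cofactors of BiP and Grp94, 0 of 11 passed, with a median of 0.07. Cnpy2 stood at 0.32 ± 0.11, Dnajc3, a co-chaperone of BiP, at −0.23 ± 0.13 and Sdf2 at 0.17 ± 0.12. The other 4 probe sets of Dnajc3 lay between −0.37 and 0.08, and the other 3 of Cnpy2 between −0.19 and 0.43. Of the other disulfide isomerases and oxidases, 0 of 14 passed, with a median of −0.04. Txndc11 stood at −0.53 ± 0.32, Ero1a, the oxidase that recharges isomerases, at −0.33 ± 0.17 and Tmx1, a membrane-bound isomerase, at 0.29 ± 0.11. The second probe sets of Txndc11 and Tmx1 stood at −0.0043 and 0.15. The other 2 probe sets of Ero1a stood at 0.10 and 0.17. In the glycan processing list 0 of 8 passed, with a median of −0.04. Man1b1, an ER mannosidase, stood at −0.65 ± 0.29, Uggt1, which returns unfolded glycoproteins to the lectins, at −0.29 ± 0.15 and Man1a at 0.16 ± 0.16. The second tested probe sets of Uggt1 and Man1a stood at −0.13 and 0.19.

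Of the genes of ER-associated degradation 0 of 16 passed, with 6 above and 10 below 0 and a median of −0.04. Edem2, a mannosidase-like gene, stood at −0.39 ± 0.24, Derl3, a derlin, at 0.36 ± 0.29 and Herpud2, the relative of Herpud1, at −0.30 ± 0.15. Herpud2 was lower on all 3 of its probe sets, the others at −0.37 and −0.13. Among genes of translocation into the ER 0 of 21 passed, with 14 above and 7 below 0 and a median of 0.09. Both transgenic arrays lay above both control arrays for 12 of them, against 22.8% of all genes. Over all tested probe sets this share was 51.7% at a signal of 1000 or more and 21.3% between 100 and 1000. The list holds genes at both levels. All 21 had control signals over 150. Ssr4, a translocon-associated protein, stood at 0.28 ± 0.12 on its brightest probe set and at −0.64 and −0.24 on dimmer ones. Spcs1 and Sec11a, subunits of the signal peptidase, stood at 0.24 ± 0.10 and 0.23 ± 0.11. The other probe sets of Spcs1 stood at 0.28 and −0.16.

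Prolyl isomerases and collagen chaperones had 0 of 13 past the threshold, with a median of 0.04. Fkbp7 stood at 0.37 ± 0.14, Ppib, the gene of cyclophilin B, at 0.22 ± 0.10 and Plod2, a lysyl hydroxylase, at −0.21 ± 0.19. The second probe set of Plod2 had the opposite sign, at 0.29 ± 0.26, and that of Ppib stood at 0.27. In the list of ER calcium and retention genes 0 of 13 passed, with 6 above and 7 below 0 and a median of −0.01. Both transgenic arrays lay above both control arrays for 4 of them and below both for 4, against 22.8% and 24.0% of all genes. Changes ran from −0.53 to 0.41, and the 3 furthest from 0 were all below it. Atp2a3, a calcium pump, stood at −0.53 ± 0.27, and the calcium release channel genes Itpr3 and Itpr2 at −0.49 ± 0.16 and −0.45 ± 0.31. The other 3 tested probe sets of Itpr2 lay between −0.33 and −0.0030. Itpr3 had 473 and 389 in control and 278 and 327 in transgenic arrays, so its groups did not overlap.

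**Figure D5:**
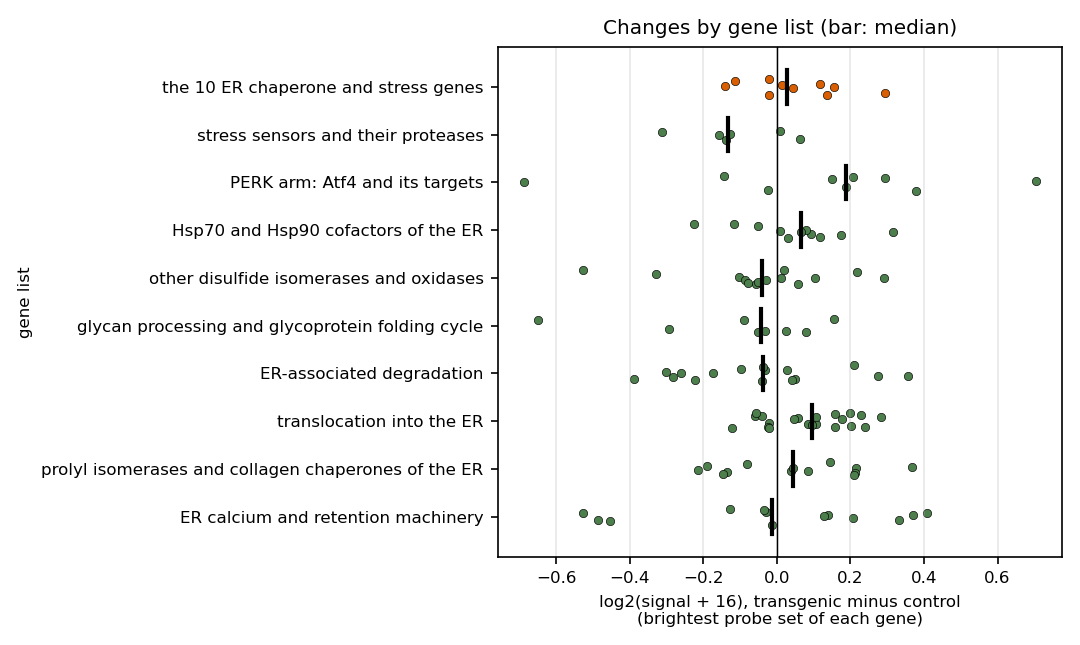
Change of log2(signal + 16), transgenic minus control (x), of the 10 genes (orange) and of the 111 tested genes of the 9 pathway lists (green), 1 point for each gene by its brightest probe set, with list medians as bars. The medians run from −0.13 for the sensors to 0.19 for Atf4 and its targets, and each row has points on both sides of 0.

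Some markers of other eye cells passed the test, which on simulated data gave more false calls than the threshold allows. Of all genes tested, 0.126% passed and 48.1% lay above 0. Corneal epithelium genes were above 0 for 4 of 5, with sums of 37841 and 37599 in control and 38800 and 41500 in transgenic arrays, and 0 of 5 passed. Krt12 stood at 0.22 and Aldh3a1 at 0.11. Rod genes summed to 181 and 225 against 164 and 149, and Sag, the 1 tested, stood at −0.27. The summed signal of 5 lens genes was 69.1 and 97.3 in control and 415 and 428 in transgenic arrays. Of the 4 tested, Cryaa, Cryba1 and Crygb rose (adjusted p between 0.0151 and 0.0406), with fitted changes of 2.00, 1.96 and 1.84. The mean control signals of all 4 were under the filter level, so they were tested only through the transgenic arrays, their direction was fixed by the filter and the sizes depend on the constant of 16. Skeletal muscle genes were above 0 for 5 of 5, with sums of 5652 and 6324 against 8634 and 8925, and Mylpf rose by 0.87 (adjusted p = 0.0073), while Acta1 stood at 0.38. Pigment cell genes were above 0 for 6 of 6, with sums of 27512 and 27354 against 31089 and 34049, and Rpe65 and Rgr rose by 1.24 and 1.06 (adjusted p = 0.0058 and 0.0070), while the brightest, Dct and Pmel, stood at 0.21 and 0.18. Fibroblast and keratocyte genes were above 0 for 5 of 6, with sums of 21245 and 20149 against 27065 and 27243, and Kera rose by 1.54 (adjusted p = 0.00029), while Dcn and Col3a1 stood at 0.34 and 0.28.

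Cells with a large ER were looked for by their own markers. Of the plasma cell genes 2 of 5 were tested, Mzb1 at 36.3 in control and at −0.23, and Sdc1, which epithelia also express, at 5012 in control and at −0.15. The sums of that list were 4963 and 5215 in control and 4482 and 4676 in transgenic arrays. Of the exocrine gland genes 3 of 5 were tested. Aqp5, which corneal epithelium also expresses, was at 8345 in control and at −0.02, and Amy1 at 44.7 and 0.03. Bhlha15 was at 26.4 in control and at 0.32 ± 0.36, higher on both transgenic arrays. Its control signals were under the filter level, so it was tested only through the transgenic arrays. The sums of the list, mostly the signal of Aqp5, were 8505 and 8391 against 8348 and 8278. Macrophage genes had 1 of 4 above 0, with sums of 1180 and 1124 against 1453 and 1388, where Csf1r stood at 0.43 and Cd68 at −0.17. What part these shifts have in the signals of the 10 genes was not tested.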

How the data were processed

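The values are linear signal intensities deposited by the authors, 1 for each of 45101 probe sets and 4 arrays. The software that made them is not given in the sources used here. Median signals were 49.0 and 50.3 on the control and 47.1 and 49.5 on the transgenic arrays. Precision is limited by having so few arrays. For Actb, signals at the 3′ end exceeded those at the 5′ end 1.14 to 1.22 times.

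Intensities were used as deposited and taken as log2(signal + 16), after leaving out 64 array controls. Probe sets above the 40th percentile of the mean were tested with limma 3.58.1 in R 4.3.3 (lmFit and eBayes with an intensity trend), with the control arrays averaged to 1 sample, two-sided tests and Benjamini-Hochberg adjustment over all 27022. The fit had 1 residual and 10.3 prior degrees of freedom. On simulated data of 3 samples, with a spread that did not depend on the signal, it found large changes but called few changes of 1.5-fold. More of its calls there were false than the threshold allows. On the arrays used here the spread fell as the signal rose, so the rates for these data are not known. Platform annotation gave 34958 probe sets 1 symbol, 932 several and 9211 none. The brightest probe set over all arrays stands for its gene, and listed genes were matched by current or older symbol. Promoter windows came from RefSeq, which held all 10 genes.

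The 10 genes, the lists and the tests were chosen with earlier results of these data known. From each pathway list the text names any gene past the threshold and the 3 that moved furthest in either direction. Of each marker list, the 2 brightest and any past the threshold are named, and Bhlha15 as the remaining tested gene of its list. With 3 samples no genes were named for likeness of pattern. Alternatives were other normalizations, pseudocounts, filters and moderation, 4 separate arrays with and without a replicate block, each array left out, and the mean over a gene's probe sets. The gene of the transgene is not reported here.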

Additional observations from a re-analysis of the deposited data

How the results depend on the processing

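In every setting that gave a test other than the replicate block, 0 probe sets of the 10 genes passed in limma. At an unadjusted limma p under 0.05 there were 3 of 24 in the fit reported, where 7.06% of all tested were. After quantile normalization there were 6 of 24, where 1898 of all 27022 were. With 4 separate arrays and no block there were 7 of 24, where 3666 of all 27022 were. The array numbers pair nothing known, since the control arrays share 1 sample, and same-numbered arrays correlated at 0.0955 in their deviations. With all 4 arrays as separate samples and the replicate block, 1740 probe sets passed (1043 higher, 697 lower), or 6.44% of all tested, among them 2 of the 24 probe sets of the 10 genes, on 1438040_a_at of Hsp90b1 (adjusted p = 0.00014) and 1423648_at of Pdia6 (adjusted p = 0.023). That fit also called 3 genes each of the translocation, prolyl isomerase and calcium lists and 1 each of the Atf4, cofactor and disulfide isomerase lists, where it called 7.53% of all genes. In it the technical control replicates count as samples. Without the block the 4 arrays gave 135 calls in all (86 higher, 49 lower).

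Against 21 probe sets in all (15 higher, 6 lower), quantile normalization gave 39 (20 higher, 19 lower) and centring on the median 56 (47 higher, 9 lower). Leaving out control arrays gave 14 to 33, the latter without control replicate 2. Without the filter and without the intensity trend limma gave 0, with 2181 and 1059 at an unadjusted p under 0.05. The median of the 10 genes was 0.059 after centring, −0.0053 after quantile normalization and 0.030 to 0.086 with an array left out. With 1 array left out, changes ran from −0.068 to 0.025 for Canx, −0.46 to 0.18 for Pdia4, −0.044 to 0.071 for Ddit3, −0.030 to 0.12 for Xbp1 and −0.094 to 0.052 for Herpud1. The sign turned for Xbp1 to −0.040 after quantile normalization, Canx to 0.0084 and Herpud1 to 0.0093 after centring, Canx to 0.011 without control replicate 1, and without control replicate 2 Pdia4 to 0.18, Ddit3 to −0.044, Xbp1 to −0.030 and Herpud1 to 0.052. As a mean over all probe sets of a gene, which gives no test, Canx was 0.0085, Xbp1 −0.059 and Herpud1 0.14, also of the other sign, while Hspa5 was 0.035, Hsp90b1 0.26, Pdia3 0.012, Pdia4 −0.34 and Ddit3 0.19. None of the tested values passed in limma, and the cause was not tested. Without a transgenic array there was no test. The sign also turned for Canx to 0.025 and Xbp1 to −0.030 without transgenic replicate 1, and for Ddit3 to −0.0095 without transgenic replicate 2.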

Other observations

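Genes with the full ERSE letters in their promoter window were also looked at over the whole table. There were 37 such genes, of which 15 were tested, among them 5 of the 10 genes described above. In limma 0 of the 15 passed, where 11 of all 10240 tested genes with a promoter window passed as higher and 4 as lower, and 1, Pdia6, had an unadjusted p under 0.05, where 8.09% of them did. Their median change was −0.02, against −0.01 over those 10240 genes. Syvn1, the ubiquitin ligase of ER-associated degradation, had the lowest change, at −0.26 ± 0.17 (adjusted p = 0.838), and Derl3 the highest, at 0.36 ± 0.29 (adjusted p = 0.887). The 8 tested genes with ERSE-II had a median of 0.02.

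The 15 tested genes with the letters ATTGCATCA in their window had a median change of 0.13. Of these 5 had an unadjusted p under 0.05, where 8.09% of all tested genes with a window did, and 0 passed in limma. They were Serpinf1 at 0.25, Cnpy2 at 0.32, Fbln5 at 0.36, Nupr1 at 0.38 and 1700120K04Rik at 0.92, and all 5 were higher on both transgenic arrays. The 5 were picked by that p, so their lack of overlap adds nothing to it. Both transgenic arrays lay above both control arrays for 46.7% of the 15, and for 22.8% of all tested genes with a window. The mean control signal of 1700120K04Rik was under the filter level, so it was tested only through the transgenic arrays. Its signals were 8.17 and 46.7 in control and 52.2 and 63.5 in transgenic arrays, so the 2 arrays of the same control sample lay far apart. The tRNA synthetase genes Aars and Iars, which Atf4 is known to raise, stood at −0.17 and −0.12. This motif was looked at among several and its values were seen before it was singled out.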
